A study of Mus musculus with 5 samples.

Results

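Genes of cardiomyocyte calcium release and reuptake were followed in chromatin immunoprecipitation (ChIP-seq) data from whole mouse hearts. They are Cacna1c, Ryr2, Trdn, Casq2, Hrc, Jph2, Atp2a2, Pln, Slc8a1 and Camk2d, a fixed list of 10 names, and every region whose deposited gene list names one of them was taken. This gave 22 of the 31098 H2A.Z regions, for 9 of the 10 genes, and 28 of the 8444 ANP32E regions, for 7 of the 10 genes. Pln had no H2A.Z region, and Trdn, Hrc and Casq2 had no ANP32E region. Hearts were of male C57BL/6 mice 12 weeks old, either 4 days after transaortic coarctation (TAC), which narrows the aorta and so raises the pressure the left ventricle works against, or after a sham operation. The histone variant H2A.Z and its chaperone ANP32E were each profiled in 1 TAC and 1 sham library, and an input library came from pooled heart. No library has a replicate, so no test between conditions is possible and every difference describes these libraries. Whether a library came from 1 heart or from several is not stated for the ChIP samples.

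In a heartbeat, calcium entering through the L-type channel opens the ryanodine receptor of the sarcoplasmic reticulum, and the released calcium starts contraction. Relaxation follows when the SERCA2 pump returns calcium to the reticulum and the sodium-calcium exchanger expels the rest across the cell membrane. Lower SERCA2 activity and slowed reuptake are well known in failing hearts. H2A.Z typically marks nucleosomes around transcription starts, above all at CpG islands, and ANP32E can remove it from chromatin.

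The members' promoters differ in CpG content, which is shown because H2A.Z signal here was high at the CpG islands. RefSeq promoters of build GRCm38.p6 were matched for 8 of the 10 genes, and the 250 bases before the start are printed, 5′ to 3′, with CpG dinucleotides in capitals. Those of Camk2d (chr3:126596701-126596950, plus strand) hold 23 CpG dinucleotides and lie in a region of each protein. Those of Cacna1c (chr6:119196410-119196659, minus strand) hold 2 and also lie in a region of each protein. Those of Slc8a1 (chr17:81738388-81738637, minus strand) hold 8 and lie in an H2A.Z region, with 48 of the bases also in an ANP32E region. Those of Pln (chr10:53337436-53337685, plus strand) hold 1 and lie in an ANP32E region only. Camk2d is shown as a promoter whose region holds an island, Cacna1c and Slc8a1 as promoters with no island in their regions, and Pln as a promoter without H2A.Z.
Camk2d: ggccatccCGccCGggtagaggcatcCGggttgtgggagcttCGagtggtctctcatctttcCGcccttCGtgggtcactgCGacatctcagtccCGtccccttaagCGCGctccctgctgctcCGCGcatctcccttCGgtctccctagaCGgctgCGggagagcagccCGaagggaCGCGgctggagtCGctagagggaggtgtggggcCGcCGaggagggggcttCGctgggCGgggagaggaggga
Cacna1c: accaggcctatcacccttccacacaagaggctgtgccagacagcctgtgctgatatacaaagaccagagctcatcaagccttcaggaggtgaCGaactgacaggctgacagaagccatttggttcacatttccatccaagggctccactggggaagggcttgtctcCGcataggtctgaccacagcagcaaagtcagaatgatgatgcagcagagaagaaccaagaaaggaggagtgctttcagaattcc
Slc8a1: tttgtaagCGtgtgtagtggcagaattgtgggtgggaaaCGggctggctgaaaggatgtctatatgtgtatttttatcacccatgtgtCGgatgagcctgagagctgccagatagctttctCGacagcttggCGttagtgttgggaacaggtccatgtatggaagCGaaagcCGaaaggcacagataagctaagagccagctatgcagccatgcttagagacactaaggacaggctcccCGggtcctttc
Pln: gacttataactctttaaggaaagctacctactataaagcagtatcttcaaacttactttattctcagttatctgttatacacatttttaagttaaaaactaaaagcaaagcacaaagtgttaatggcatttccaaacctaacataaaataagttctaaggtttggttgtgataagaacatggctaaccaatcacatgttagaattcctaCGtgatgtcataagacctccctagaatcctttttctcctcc
The median over 32851 RefSeq promoter windows of this length is 6 CpG dinucleotides. A GC box (GGGCGG, either strand) occurs 3 times in the Camk2d window and is found in 32.7% of all windows. The TATA letters TATAAA occur in the Pln window and in 12.4% of all windows, and the GATA letters AGATAA in the Pln and Slc8a1 windows and in 9.99% of all. An E-box (CANNTG) is absent from the Camk2d window, present in the other 7 members' windows and in 66.2% of all. The MCAT letters CATTCC, in 12.6% of all windows, are in none of the 8. These are letter matches and not measured binding. The windows of the other matched genes hold 14 CpG dinucleotides in Ryr2, 5 in Casq2, 5 in Jph2 and 3 in Hrc. CpG content near the start and an island in the region did not always go together, since the Hrc region holds islands and Ryr2 has no region of either protein at its start.

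ANP32E signal over these genes was lower in TAC than in sham hearts almost throughout. Signal is the deposited average over a region, in units whose scaling the sources used here do not give, and the ratio is log2((TAC + 1)/(sham + 1)). Across the 28 regions the average signal ran from 2.00 to 9.56 with a median of 3.89 in the TAC library, against 6.73 to 11.9 with a median of 7.60 in the sham library. The median log2 ratio was -0.86, and 27 of 28 ratios were below 0, against 70.7% of all ANP32E regions. Counting a region as lower or higher from a 1.5-fold ratio, 22 of the 28 were lower, against 23.9% of all ANP32E regions. None was higher, against 4.96% of all. The median of all ANP32E regions was itself -0.26, and relative to that shift the members' median was -0.60 and 14 regions were lower, against 11.1% of all regions.

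Most of these regions belong to classes in which ANP32E was low in TAC across the genome. Of the 28, 17 lay inside a gene, 5 at a promoter (centre within 1000 bp of the start, or the region overlapping it) and 6 flanking a gene. Members were classed by their own gene, and regions of the whole table over all genes listed for them, a promoter coming first. By the table-wide rule the flanking Pln regions would lie inside Cep85l, and the Cacna1c island region at the Dcp1b start would be a promoter. Of the 16 inside a gene and without a CpG island, 14 were lower, against 48.3% of the 1672 such regions in the table. Intervals were called in sham only at 25 of the 28 regions, in both libraries at 3 and in TAC only at none, compared with 50%, 33.2% and 16.8% of the table. A region called in sham only enters the table through its sham signal, which favours a low ratio. Of all 4224 such regions, 98.2% had a ratio below 0. Within that class, again inside genes and without an island, 14 of 15 member regions were lower, against 61.6% of 1306. The regions called in both libraries, 1 each at Atp2a2, Cacna1c and Camk2d, had ratios of 0.09, -0.20 and -0.29.

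**Figure D1:**
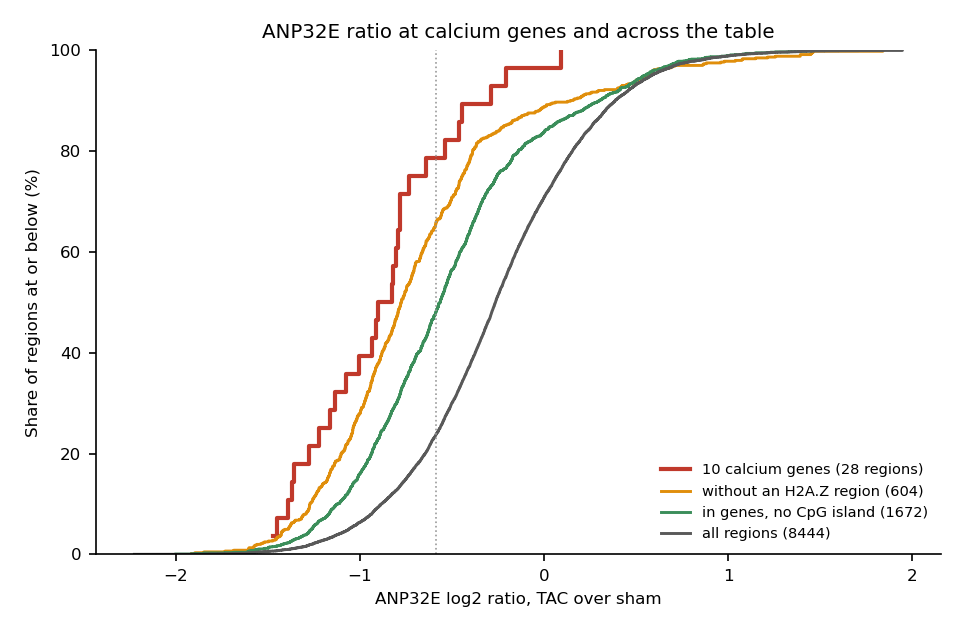
Cumulative share of ANP32E regions (vertical axis, %) by log2 ratio of TAC over sham average signal (horizontal axis) for the 28 regions of the calcium genes, the 604 regions that overlap no H2A.Z region, the 1672 regions inside genes without a CpG island and all 8444 regions; the dotted line marks a 1.5-fold lower signal. At that line the curves stand at 78.6%, 66.1%, 48.3% and 23.9%.

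Atp2a2, which encodes the SERCA2 pump, carried the most ANP32E regions. Inside the gene 7 regions covered 11.5 kb, or 23.7% of its 48.7 kb, and all 7 were lower in TAC. Their average signal was between 2.32 and 3.89 in TAC hearts and between 7.06 and 9.25 in sham hearts. All 7 were called in sham only, which favours such a separation. Over all 1306 regions of that kind, inside genes and without an island, 61.6% were lower. Their median signals were 4.53 in TAC and 7.81 in sham. The strongest in sham, 21.0 kb from the start (chr5:122479973-122482398), had 3.66 in the TAC library and 9.25 in the sham library, a log2 ratio of -1.14. The lowest ratio, -1.37, was 35.0 kb from the start (chr5:122466762-122467756), with 2.32 in TAC and 7.58 in sham. The highest of the 7, -0.80, was 18.4 kb from the start, with 3.89 in TAC and 7.53 in sham. Ratios of the others were -0.91, -1.36, -1.08 and -0.82 at 7.25, 10.9, 31.5 and 36.2 kb. They showed no steady trend along the gene. Gaps between neighbouring regions inside the gene were 34 and 156 bp at the nearest pairs and 8677 bp at the widest.

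The regions flanking Atp2a2 differed from each other. The region spanning the gene's end, centred 48.8 kb from the start, had signal of 4.73 in TAC and 8.83 in sham (-0.78). Upstream, 8.52 kb before the start (chr5:122509888-122511605), it was 8.09 in TAC and 7.52 in sham. That ratio was 0.09, and 0.36 when set against the shift. That was the only one of the 28 member regions with a ratio above 0, although its peak value was 16 in TAC and 17 in sham. The start of Atp2a2 itself had no ANP32E region. Of the 1475 genes with ANP32E regions inside them, 14 had at least 7 such regions, and 2 had at least 7 that were lower in TAC: Atp2a2 and Myh6, the alpha myosin heavy chain gene, with 8 of 8. Myh6 was named after its values were seen, and its 8 regions were all called in sham only.

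**Figure D2:**
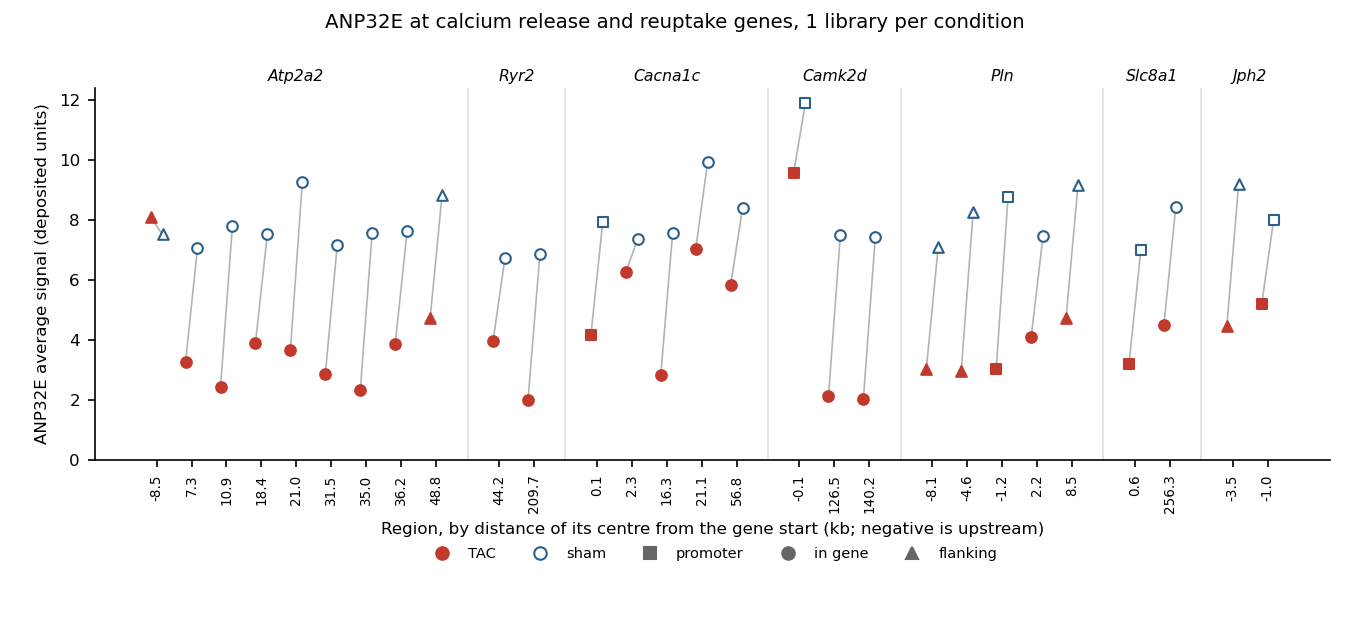
ANP32E average signal (vertical axis, deposited units) in the TAC library (filled red) and the sham library (open blue) for each of the 28 regions, grouped by gene and ordered by distance from the gene start (horizontal axis, kb); squares are promoter, circles in-gene and triangles flanking regions, with 1 library per condition and hence no error bars. The TAC value lies below the sham value at 27 of 28 regions, against 70.7% of all ANP32E regions, the exception being the region upstream of Atp2a2.

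Pln encodes phospholamban, the small membrane protein that inhibits SERCA2 until it is phosphorylated. Its 5 ANP32E regions, spread from 8.11 kb upstream to 8.53 kb downstream of the start, were all lower in TAC and all called in sham only. At the promoter (chr10:53334895-53338145) signal was 3.04 in TAC and 8.78 in sham, a log2 ratio of -1.27. Further upstream it was 2.97 in TAC and 8.26 in sham at 4.65 kb (-1.22). At 8.11 kb upstream it was 3.03 in TAC and 7.09 in sham (-1.01). These upstream ratios were lower than those over and beyond the gene. Inside Pln, 2.17 kb from the start, signal was 4.09 in TAC and 7.46 in sham (-0.73), and 8.53 kb from the start it was 4.73 in TAC and 9.16 in sham (-0.83). All 5 regions are also listed inside Cep85l, the gene in which Pln lies, so the signal cannot be assigned to one of the genes alone.

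Ryr2, the cardiac ryanodine receptor through which the reticulum releases calcium, had only 2 ANP32E regions in its 554 kb, covering 0.311% of the gene. At 209.7 kb from the start (chr13:11896840-11897721) signal was 2.00 in TAC and 6.85 in sham, a log2 ratio of -1.39. At 44.2 kb it was 3.96 in TAC and 6.73 in sham (-0.64). Both were lower in TAC, and relative to the shift the second stood at -0.38. No region of either protein lay at the Ryr2 promoter. Jph2, the junctophilin that holds the reticulum close to the cell membrane, had 2 regions before its start. The promoter region (chr2:163397570-163400324) had 5.20 in TAC and 8.0 in sham (-0.54). The flanking region 3.47 kb upstream had 4.46 in TAC and 9.21 in sham (-0.90). Only the flanking region passed 1.5-fold. The promoter also did with a pseudocount of 0.1 in place of 1 (-0.61), but not with 5 (-0.35). Relative to the shift the promoter stood at -0.27, and its peak values of 13 in TAC and 14 in sham gave -0.10. Both regions are also listed for 3230401D17Rik, and no ANP32E region lay inside Jph2.

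Cacna1c, the pore subunit of the L-type calcium channel, showed a mixed picture. At its promoter (chr6:119195484-119197115) ANP32E was 4.16 in TAC and 7.94 in sham, a log2 ratio of -0.79. Of 4 regions inside the gene 1 was lower, at 16.3 kb, with 2.83 in TAC and 7.57 in sham (-1.16). That region, the promoter region and the in-gene region at 2.30 kb are also listed for the neighbouring gene Dcp1b. The highest in-gene ratio, -0.20, was 2.30 kb from the start, with 6.26 in TAC and 7.37 in sham. Relative to the shift this last value was 0.06. The strongest in-gene region, 21.1 kb from the start, lies over a CpG island at the start of Dcp1b and had 7.03 in TAC and 9.92 in sham (-0.44). At 56.8 kb the values were 5.83 in TAC and 8.40 in sham (-0.46). Cacna1c was the only one of the 6 genes with ANP32E regions inside them where fewer than all of those regions were lower.

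Slc8a1 encodes NCX1, the sodium-calcium exchanger, and both of its ANP32E regions were lower in TAC. At the promoter (chr17:81737117-81738435) signal was 3.19 in TAC and 7.0 in sham, a log2 ratio of -0.93. At 256 kb into the gene it was 4.49 in TAC and 8.44 in sham (-0.78). Camk2d encodes the delta isoform of the calcium/calmodulin-dependent kinase II, which phosphorylates the ryanodine receptor and phospholamban. Its CpG-island promoter (chr3:126595561-126598164) held the strongest ANP32E signal of the 28 regions, 9.56 in TAC and 11.9 in sham. The log2 ratio there was -0.29, and -0.03 when set against the shift. Deep in the gene the picture was different. At 126 kb (chr3:126722827-126724045) signal was 2.12 in TAC and 7.5 in sham (-1.45), and at 140.2 kb it was 2.04 in TAC and 7.44 in sham (-1.47). These were the lowest ratios of any member, and 0.651% of all ANP32E regions had a ratio below that at 140.2 kb. Both regions were called in sham only, with peak values of 4 and 3 in TAC and 15 and 14 in sham. Their median ratio, -1.46, became -0.82 with a pseudocount of 5 in place of 1.

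H2A.Z over the same genes showed no common direction. Across the 22 regions average signal ran from 6.66 to 62.8 with a median of 12.6 in TAC hearts, against 8.06 to 55.8 with a median of 13.6 in sham hearts. The median log2 ratio was -0.0038, with 11 ratios above 0 and 11 below, beside a median of 0.01 over all H2A.Z regions. Of the 22, 3 were lower by 1.5-fold, against 3.92% of all regions, and none was higher, against 1.74%. The 3 were the Trdn promoter, a region upstream of Slc8a1 and a region inside Camk2d, all called in sham only. Of all 3772 H2A.Z regions called in sham only, 25.8% were lower. Intervals were called in both libraries at 12 of the 22 regions, in sham only at 6 and in TAC only at 4, compared with 76.9%, 12.1% and 11% of the table.

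Member regions over a CpG island all had ratios above 0, and those without one fell on both sides. The 6 with an island had ratios from 0.06 to 0.26 and a median signal of 32.8 in TAC and 29.2 in sham. All were called in both libraries, as were 97.5% of all island promoters and 85.6% of all in-gene island regions. Ratios below 0 were found at 38.1% and 31.6% of these classes. The 16 without an island had 11 ratios below 0 and 5 above, a median ratio of -0.13, and median signals of 11.1 in TAC and 12.6 in sham. Of the 16, 6 were called in sham only and 4 in TAC only, which favours ratios below and above 0 respectively. Of all regions without an island, 40.5% at promoters, 59.5% inside genes and 50.1% flanking or between genes had ratios below 0. Among regions without an island, the members' medians were -0.23 at 5 promoters, 0.02 at 7 in-gene regions and -0.38 at 4 flanking regions. Over the whole table the same classes had medians of 0.05, -0.09 and -0.0008. At island promoters the median was 0.17 for the 3 members and 0.04 for all.

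**Figure D3:**
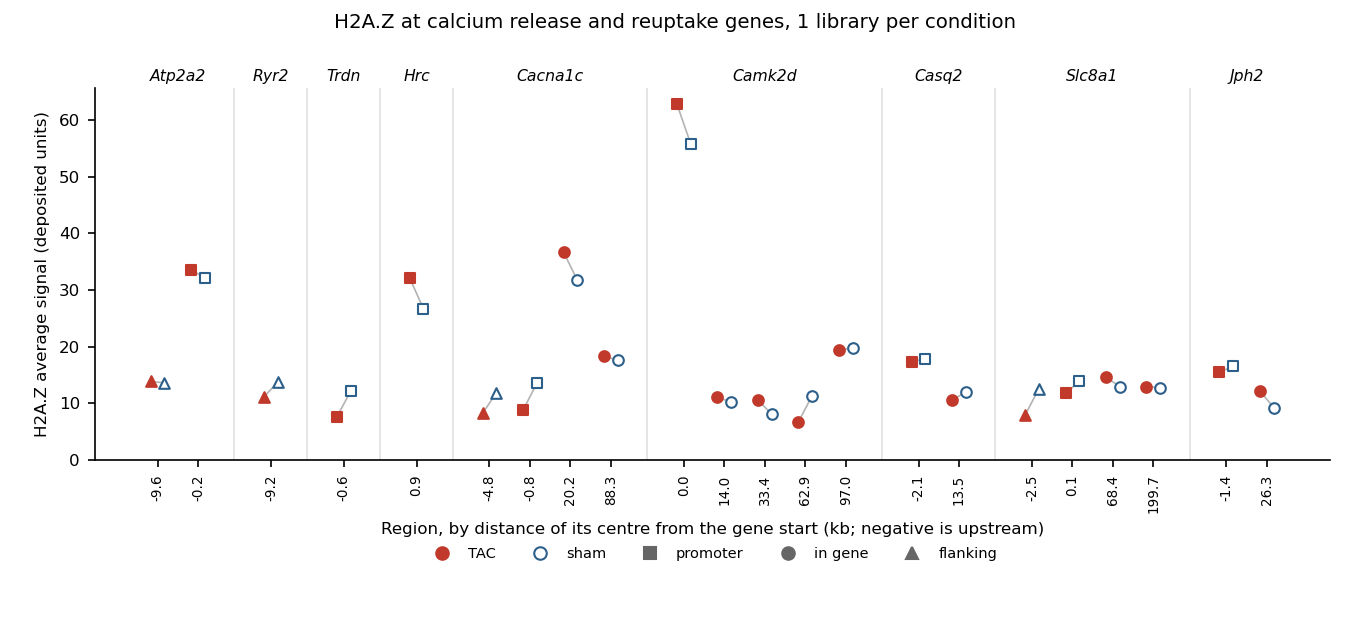
H2A.Z average signal (vertical axis, deposited units) in the TAC library (filled red) and the sham library (open blue) for each of the 22 regions, grouped by gene and ordered by distance from the gene start (horizontal axis, kb); squares are promoter, circles in-gene and triangles flanking regions, with 1 library per condition and hence no error bars. The Camk2d promoter stands highest, at 62.8 in TAC and 55.8 in sham, and TAC values lie below sham values at the Trdn promoter and at the regions at and before the Cacna1c start.

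Islands carried the strongest H2A.Z, at promoters and inside Cacna1c. The promoter of Camk2d (chr3:126594789-126599092) had 62.8 in TAC and 55.8 in sham, a log2 ratio of 0.17. Atp2a2 (chr5:122500276-122504610) had 33.6 in TAC and 32.1 in sham (0.06), and the region 9.60 kb upstream of it had 13.8 in TAC and 13.6 in sham (0.02). Values at Atp2a2 were thus nearly the same in the 2 libraries. The region at Hrc, which encodes a histidine-rich calcium-binding protein of the reticulum lumen, spans 11.7 kb and had 32.1 in TAC and 26.7 in sham (0.26). It also covers the start of Trpm4, a cation channel gene, so its signal is shared. Inside Cacna1c the island at the Dcp1b start had 36.7 in TAC and 31.7 in sham (0.20), with peak values of 190 in TAC and 140 in sham. A second island inside Cacna1c, 88.3 kb from its start, had 18.3 in TAC and 17.6 in sham (0.06). The island 68.4 kb into Slc8a1 had 14.6 in TAC and 12.9 in sham (0.17).

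Promoters without an island had weaker H2A.Z, and all 5 ratios were below 0 on average signal, against 40.5% of the 2061 such promoters in the table. Of the 5, 2 (Trdn and Cacna1c) were called in sham only, against 4.42% of the 2061. Such calls favour a low ratio, and 96.2% of all H2A.Z regions called in sham only had ratios below 0. Trdn encodes triadin, which links the ryanodine receptor to calsequestrin. Its promoter (chr10:33081671-33084184) had 7.59 in TAC and 12.1 in sham, a log2 ratio of -0.61, and peak values of 19 in TAC and 23 in sham gave -0.26. Cacna1c (chr6:119196126-119198256) had 8.79 in TAC and 13.5 in sham (-0.57), which falls short of 1.5-fold with the pseudocount of 1 but passes it with 0.1 (-0.62), with peak values of 13 in TAC and 29 in sham (-1.10). The region 4.76 kb upstream of Cacna1c, also called in sham only, had 8.23 in TAC and 11.8 in sham (-0.47). It and the Cacna1c promoter region are also listed for Dcp1b. Before Slc8a1 ratios were below 0 as well. At its promoter H2A.Z was 11.7 in TAC and 13.9 in sham (-0.23), and 2.47 kb upstream it was 7.90 in TAC and 12.5 in sham (-0.60). Peak values at that upstream region were 15 in TAC and 33 in sham (-1.09). Casq2 encodes calsequestrin, the main calcium buffer of the reticulum, and its promoter region, centred 2.13 kb upstream, had 17.4 in TAC and 17.8 in sham (-0.04). At Jph2 the promoter had 15.4 in TAC and 16.6 in sham (-0.09), but the peak values, 42 in TAC and 34 in sham, turned that sign (0.30). That region is also listed for 3230401D17Rik. The only Ryr2 region, 9.19 kb upstream, had 11.1 in TAC and 13.7 in sham (-0.28).

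H2A.Z regions inside these genes without an island went both ways. Camk2d held 4 of them. At 62.9 kb signal was 6.66 in TAC and 11.3 in sham, a log2 ratio of -0.69 and the lowest of the 22. At 33.4 kb it was 10.6 in TAC and 8.06 in sham (0.36). At 14.0 kb it was 11.1 in TAC and 10.2 in sham (0.12), and at 97.0 kb, the strongest of the 4, it was 19.4 in TAC and 19.8 in sham (-0.03). The region inside Jph2, at 26.3 kb, had the highest ratio of the 22, 0.37, with 12.2 in TAC and 9.25 in sham. Inside Casq2, at 13.5 kb, signal was 10.5 in TAC and 12.0 in sham (-0.17), although peak values of 23 in TAC and 21 in sham turned the sign (0.13). At 199.7 kb into Slc8a1 it was 12.9 in TAC and 12.7 in sham (0.02).

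**Figure D4:**
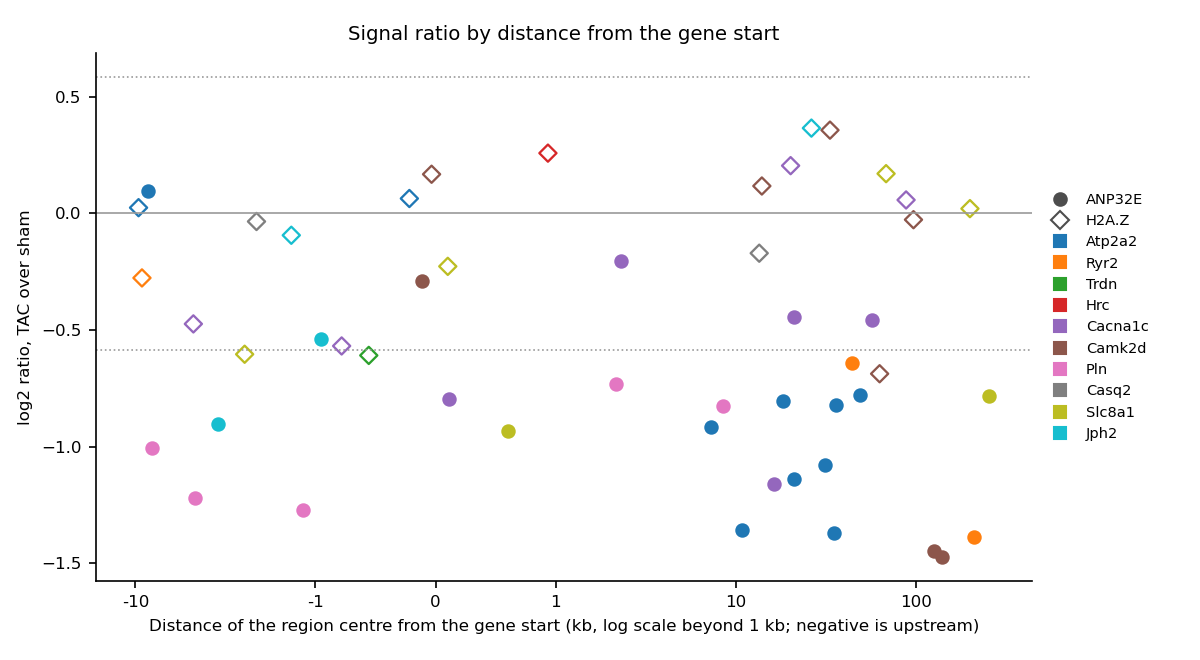
Log2 ratio of TAC over sham average signal (vertical axis) against distance of the region centre from the gene start (horizontal axis, kb, logarithmic beyond 1 kb, negative upstream) for ANP32E regions (filled circles) and H2A.Z regions (open diamonds), coloured by gene; dotted lines mark 1.5-fold. ANP32E circles lie below 0 at all distances except 8.52 kb upstream of Atp2a2, while H2A.Z diamonds lie on both sides of 0, from -0.69 to 0.37.

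Most ANP32E regions of these genes lay apart from H2A.Z regions. An overlap of at least 1 bp was found for 7 of 28, or 25%, against 92.8% of all ANP32E regions. Inside genes it was 1 of 17, the island at the Dcp1b start, against 77.3% of all in-gene ANP32E regions. The class rules differ here, since the table-wide classes count that island region as a promoter. None of the 7 regions inside Atp2a2 and none of the 5 around Pln met an H2A.Z region. From the other table, 6 of the 22 H2A.Z regions, or 27.3%, overlapped an ANP32E region, against 23.1% of all. Among the 21 ANP32E regions without H2A.Z, 19 were lower in TAC with a median ratio of -1.01, against 66.1% and a median of -0.78 for all 604 such regions. All but the Cacna1c region at 2.30 kb were called in sham only, which favours a low ratio. Of all 515 sham-only regions without H2A.Z, 77.5% were lower, with a median of -0.84. Among the 7 with H2A.Z, 3 were lower with a median of -0.54, against 20.6% and a median of -0.24 for all. Of these 7, 5 were called in sham only, with 3 lower, against 41.5% of all sham-only regions with H2A.Z, and 2 in both libraries.

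Where regions of the 2 proteins overlapped, their ratios stood as follows. At the Camk2d promoter ANP32E was at -0.29 and H2A.Z at 0.17, and at the island near the Dcp1b start they were at -0.44 and 0.20. Upstream of Atp2a2 both were slightly above 0, at 0.09 for ANP32E and 0.02 for H2A.Z. At the Cacna1c promoter both were below 0, at -0.79 and -0.57, as at the Slc8a1 promoter, at -0.93 and -0.23. The 2 ANP32E regions at Jph2, at -0.54 and -0.90, overlapped a single H2A.Z region at -0.09. Levels of the 2 proteins come from separately processed tables and are not compared.

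A wider list of 63 other genes of excitation-contraction coupling and calcium handling, without the 10 described above, was read in the same way, with a gene's ratio taken at its promoter or, without one, as the median of its in-gene regions. For ANP32E, 31 genes had a region and 26 a ratio, of which 6 were lower and none higher, with a median of -0.27, which is -0.01 relative to the shift. Over all 6420 genes with such a ratio 13.1% were lower and 4.66% higher, with a median of -0.16. The lowest of the list were Cacnb2, an auxiliary subunit of the L-type channel, with a median of 2.46 in TAC and 6.94 in sham (-1.20), Stim1, a calcium sensor of the reticulum (-0.88), and Ppp1cb and Prkar2a, subunits of protein phosphatase 1 and of protein kinase A (-0.80 and -0.77). All 4 were read inside the gene. The highest were promoters: Prkar1a, another protein kinase A subunit, with 8.90 in TAC and 6.93 in sham (0.32), Itpr2 (0.23) and Itpr1 (0.06), both inositol trisphosphate receptors, and Ppp1cc (0.11). The in-gene regions of the list were lower in 11 of 20 cases, against 42% of all in-gene ANP32E regions, and its promoter regions in 1 of 18, against 9.9% of all promoter regions.

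For H2A.Z, 59 of the 63 had a region and 58 a ratio, with 1 lower, none higher and a median of -0.02, against 0.485% lower and 0.605% higher of 15038 genes and a median of 0.03. The lower gene of the list was Srl, which encodes sarcalumenin, a calcium-binding protein of the reticulum, with 7.28 in TAC and 12.9 in sham at the promoter (-0.75). Ryr3 (-0.48) and Cacna1s (-0.41) were also among the lowest. Bin1, which shapes the transverse tubules, had the highest ratio, with 31.2 in TAC and 23.7 in sham (0.38), followed by Atp2b4 (0.27), Trpm4 in the region shared with Hrc (0.26) and Rrad (0.25).

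ANP32E was also low in TAC over contractile genes. In a list of 31 sarcomere genes, 23 of 26 in-gene ANP32E regions were lower with a median of -0.94, and 23.1% of them overlapped H2A.Z, beside 14 of 17, -0.91 and 5.88% for the calcium genes and 42%, -0.48 and 77.3% for all in-gene regions. The difference between the lists was not tested. Whole hearts hold several cell types, and fewer nuclei of a type cannot be told apart from less bound protein per nucleus. Of 10 cardiomyocyte markers, 6 had an ANP32E region, 21 regions in all, of which 17 were lower and none higher. Over all ANP32E regions 23.9% were lower and 4.96% higher. The ANP32E signal of these markers summed to 88.9 in TAC and 168 in sham. An H2A.Z region was found at 7 of the 10, with 281 in TAC and 298 in sham. Tnnt2, Mybpc3, Nkx2-5 and Tbx5 had no ANP32E region, and Myh6, Actc1 and Myl2 no H2A.Z region. Myh6, Actc1, Myl2, Tnnt2 and Mybpc3 are also in the sarcomere list. The marker and sarcomere counts therefore share regions, among them the 8 inside Myh6. Endothelial markers had ANP32E regions at 4 of 5 genes, 11 regions in all, of which 4 were lower and 2 higher, summing to 74.5 in TAC and 83.6 in sham, and H2A.Z at all 5, with 239 in TAC and 234 in sham. Read per gene as in the wider list, ANP32E was lower at 3 of 4 endothelial markers (median -0.70) and at 3 of 5 cardiomyocyte markers (median -0.64). Over all 6420 genes 13.1% were lower (median -0.16). Of 6 fibroblast markers, only Pdgfra had an ANP32E region, with 8.62 in TAC and 4.88 in sham, and 3 had H2A.Z, with 105 in TAC and 99.7 in sham. Of 4 leukocyte markers only Cd68 had regions, summing to 21.8 in TAC and 28.2 in sham for ANP32E and to 57.6 in TAC and 68.9 in sham for H2A.Z. That ANP32E signal only flanked Cd68, and 1 of its 2 H2A.Z regions was flanking. The sums of all marker lists count flanking regions too. Smooth muscle markers had no ANP32E region, and 2 of 3 had H2A.Z, with 85.0 in TAC and 89.2 in sham. Alb, Afp and Neurod1, markers of other tissues, had no region of either protein, and Vil1 had H2A.Z only. The part of cell composition in the ANP32E ratios was not tested.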

How the data were processed

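ChIP, library construction and sequencing were done by a service company, per the labels' protocols. Per the submitters' processing notes, BWA, SICER and the mm10 build were used, with versions not stated. The authors deposited 1 table per antibody, in which intervals of the TAC and sham libraries form common regions. Each region carries, per the file headers, an average and a peak signal and a mark for an interval called in each library. How the deposited signal was scaled for depth or input is not stated in those sources, so depth is unknown and intervals for counting error cannot be given. Coordinates are as deposited, and whether they count from 0 or 1 is not stated. The input library was not analysed here.

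A region belonged to a gene named in its deposited gene list. Its class was taken from that gene for members and gene lists, and over all its listed genes for shares of all regions. The ratio was log2((TAC + 1)/(sham + 1)) of the average signal, which understates differences of weak regions, and 1.5-fold was the threshold. With 1 library per antibody and condition no test was made. Counts and medians stand beside those of all regions of the table. The members and gene lists were chosen with earlier results of these data known. Named genes were the 10 members, with their promoter, strongest and extreme in-gene regions, and the 4 highest and 4 lowest of the wider list per antibody, of which 1 is not reported here. Promoter sequences came from RefSeq (GRCm38.p6). Alternatives were the peak signal, pseudocounts of 0.1 and 5, ratios centred on the median, a 2-fold threshold, the stronger 50% of regions, regions called in both libraries, regions listing no other gene, promoters within 5000 bp, genes counted once or left out in turn, and 2 other definitions of overlap. The ratio and the class rule were tested on simulated data. Python 3.11.15, numpy 2.4.6, pandas 2.3.3 and matplotlib 3.10.9 were used.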

Additional observations from a re-analysis of the deposited data

How the results depend on the processing

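No paired analysis was possible because each condition has 1 library per antibody. A median counts here as moved where it shifts by more than the SD of all ratios of its table (0.29 for H2A.Z, 0.50 for ANP32E), and a count where it changes by more than 1.5 times. The count of 22 ANP32E regions lower in TAC became 12 with a pseudocount of 5, 14 relative to the median of all regions, 11 at 2-fold, 16 with peak values and 13 among the 16 regions that list no other gene. It was 0 among the 3 regions called in both libraries and 0 among the 3 in the stronger 50% of the table, where few member regions are left. Leaving out each gene in turn gave 14 to 22, lowest without Atp2a2. The ANP32E median, -0.86 over all member regions, was -0.29 in the stronger 50% and -0.20 among regions called in both libraries. The in-gene median was -0.20 among regions called in both, and the promoter median -0.29 there and in the stronger 50%. The count of 3 H2A.Z regions lower in TAC became 0 with a pseudocount of 5, at 2-fold, in the stronger 50% and among regions called in both libraries, and peak values made 1 region higher. The H2A.Z median over all member regions, -0.0038, was 0.06 with peak values, and the promoter median, -0.06, became 0.07. The overlap of 7 ANP32E regions with H2A.Z regions was 2 where only regions called in both libraries entered. In all, 166 values of these summaries, some of them given above, kept their size within those limits and 18 moved. Of the values for single genes, 128 kept their size and 5 moved. No ratio past 1.5-fold changed sign. The unknown depth limits the weakest ANP32E values, near 2.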

Other observations

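Among the other genes with many ANP32E regions inside them, the share lower in TAC varied widely. These genes were chosen after their values were seen. Myh6 had 8 of 8 regions lower by 1.5-fold (median log2 ratio -0.95), Ssh2 6 of 8 (-0.92), Cd36, a fatty acid transporter, 6 of 7 (-0.96), and Cep85l, which holds the Pln regions, 6 of 6 (-0.99). Over all in-gene ANP32E regions 42% were lower and 70.1% were called in sham only, which favours a low ratio. All regions inside Myh6, Ssh2 and Cep85l and 85.7% of those inside Cd36 were called in sham only. By contrast Col4a2, a basement membrane collagen, had 0 of 7 lower (-0.42) and Tns1, a focal adhesion protein, 0 of 7 (median 0). Sham-only calls made up 85.7% of the regions inside Col4a2 and 28.6% of those inside Tns1. Atp2a2, with 7 of 7 and a median of -1.08, had 1.44 such regions per 10 kb of gene, against 3.07 in Myh6.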
